A study of Drosophila melanogaster with 22 samples.

Results

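Anterior ovarioles of older virgin females were set against a small set of young libraries that resemble them in the share of small RNAs. The older side holds the 12 libraries of days 5, 6, 7 and 8 after eclosion, 3 per day. The young side was chosen by a measured value, the summed counts on ERCC spike-in transcripts, and holds the 3 libraries of days 1 to 4 with fewer than 100 of them, which are day 2 replicate 1, day 3 replicate 2 and day 4 replicate 2. Together they are 15 of the 22 libraries of the series, and all 17478 annotated genes were considered. All flies were w1118, a white-eyed laboratory strain, raised at 25 °C in constant light with no treatment. Each sample pooled 30 to 50 ovarioles, and 200 ng of total RNA went into a stranded polyA library. Tissue of days 5 to 8 was cut after stage 7 egg chambers and tissue of days 1 to 4 after stage 8, so that age and dissection cannot be told apart. Spike-in was counted in every library of days 5 to 8 and hardly at all in the 3 young ones, so that any difference in library handling that goes with it cannot be told apart from age either. The study describes the samples of a day as independent replicates. The labels do not give the number of flies per pool.

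An ovariole is a string of egg chambers of rising age, with the germline and follicle stem cells in the germarium at its tip. Each chamber holds an oocyte and its nurse cells within an epithelium of follicle cells, which later makes yolk protein and then secretes the eggshell, first the vitelline membrane and last the chorion. In bulk RNA, fewer cells of a type and less RNA per cell cannot be told apart.

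The spike-in counts that chose the young libraries were 31, 19 and 52 on days 2, 3 and 4, and ran from 27387 to 78576 in days 5 to 8. Among the young libraries not chosen the lowest value was 25577, far above the limit. Small nucleolar and small nuclear RNAs took 0.0342 to 0.102% of gene counts in days 5 to 8, 0.0425 to 0.0544% in the young libraries without spike-in and 0.178 to 0.412% in the 7 young libraries with spike-in. Gene counts per library were 2975582 to 4634327 in days 5 to 8. They were 4126054 and 3648865 in the young libraries of days 3 and 4, but 9781870 in that of day 2, so the likeness in depth held for only some of the young side. Mitochondrially encoded genes took 0.588 to 1.51% of gene counts in days 5 to 8 and 1.17 to 2.72% in the young libraries without spike-in. Germline markers (vas, nos, osk, orb and bam) summed to 4008 to 5465 CPM in days 5 to 8 and 3655 to 4367 CPM in the young libraries, where CPM are counts scaled to TMM library sizes. The follicle cell markers tj, Fas3, cas and eya summed to 693 to 949 CPM in days 5 to 8 and 440.5 to 550 CPM in the young libraries. Both sides thus hold the germline and follicle cell markers that the tissue label calls for. Of the 5 haemocyte markers NimC1 and He had no count in the 15 libraries, and the 5 (Hml, NimC1, He, eater and PPO1) summed to at most 4.59 CPM in days 5 to 8 and 1.67 CPM in the young libraries. A wider list of 11 haemocyte genes summed to 128 to 199 CPM in days 5 to 8 and 94.1 to 160 CPM in the young libraries, and its 2 tested members were called in opposite directions. srp, a GATA factor of blood cells, had 82.8 to 135 CPM in days 5 to 8, against 40.1, 81.2 and 48.1 CPM in the young libraries of days 2, 3 and 4 (log2 0.95 ± 0.18, edgeR adjusted p = 0.000677). With the length offset described below it was called (adjusted p = 0.0274), but not when the young library of day 2 or day 4 was left out as well (adjusted p = 0.294 and 0.141). crq, a scavenger receptor of blood cells, had 29.1 to 70.0 CPM in days 5 to 8, against 51.5, 76.9 and 70.4 CPM (log2 -0.68 ± 0.18, adjusted p = 0.0116), and was not called without the young library of day 3 or day 4 (adjusted p = 0.10 and 0.0578). The part of blood cells in the results was not tested.

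Of 7426 genes tested, edgeR called 1009 higher in days 5 to 8 (13.6%) and 693 lower (9.33%) at an adjusted p under 0.05, with a median log2 difference over all genes of -0.03. Of the calls, 59.3% were higher, a share that was 46.9% (842 higher and 954 lower) when libraries were scaled by their upper quartile in place of TMM. The median size of a called difference was 0.58 on the log2 scale for genes higher and 0.55 for genes lower. The 12 older libraries lay above all 3 young ones in 610 of the genes called higher, and below all 3 in 358 of those called lower. The same held for 8.47% and 5.32% of all genes tested. Without the young library of day 2, 582 genes were called higher and 246 lower. Without that of day 3 the counts were 806 and 392, and without that of day 4 they were 745 and 433.

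The calls followed the length of the transcript. Of the 1443 protein-coding genes with the longest annotated exons, of 5 bins of near equal size (4457 bases or more), 48.9% were called higher in days 5 to 8 and 0.624% lower. In the bin of the shortest (1442 genes of at most 1242 bases) 0.832% were called higher and 18% lower. The median log2 difference was 0.40 in the longest bin and -0.27 in the shortest. The median of the longest bin minus that of the shortest, each taken against the mean of the older libraries, was -0.26 to 0.18 in days 5 to 8. It was -0.68, -0.66 and -0.61 in the young libraries of days 2, 3 and 4, and -0.14 to 0.53 in the young libraries with spike-in. The 3 young libraries without spike-in thus stood below all 12 older ones in long genes and above all 12 in short ones. Whether this trend came with the preparation of these libraries or with the tissue was not tested. The comparison of the sides was therefore also fitted with a length offset, chosen after the data were seen, which removes from each library its smooth trend on exon length. With the offset 375 genes were called higher (5.05%) and 314 lower (4.23%). Of these, 284 and 191 were also called in the same direction without it, and 7 genes called higher without the offset were called lower with it. Calls with no offset also varied with abundance. Of the fifth of genes with the highest mean CPM 37.2% were called higher and 6.06% lower (median log2 0.21). Of the fifth with the lowest, 4.1% were called higher and 6.19% lower (median -0.10). Whether this went with length was not tested.

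**Figure D1:**
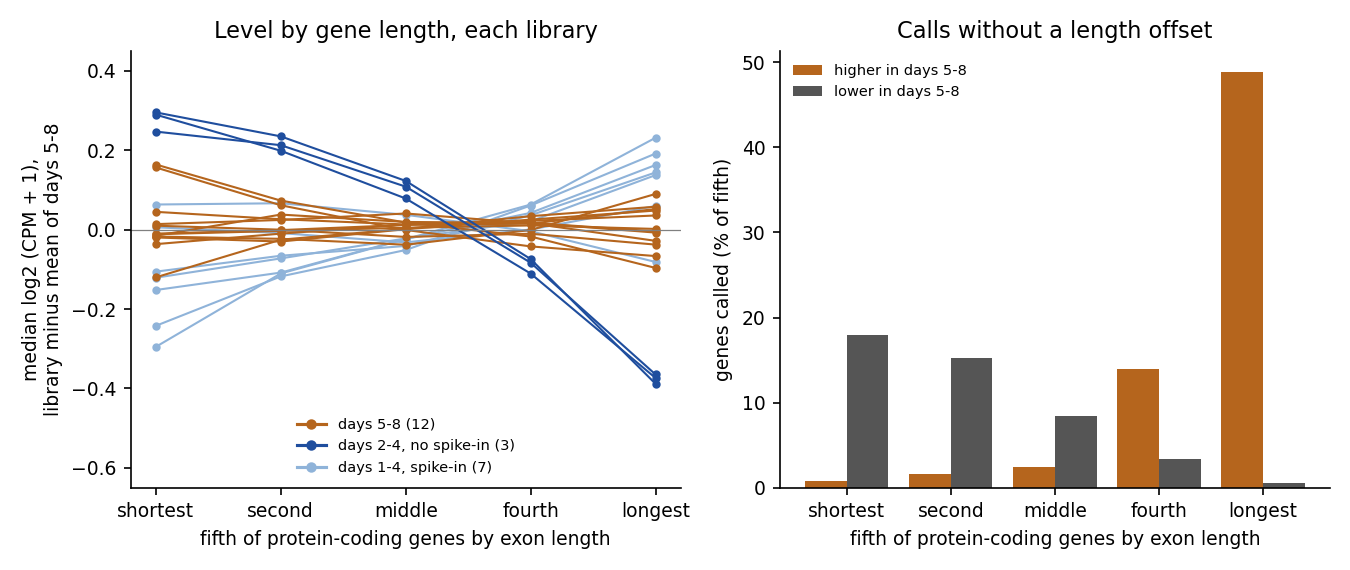
Left, median level of protein-coding genes in 5 bins of annotated exon length, as the log2 (CPM + 1) of a library minus the mean of the libraries of days 5 to 8, 1 line per library. Right, percent of each bin called higher or lower in days 5 to 8 without a length offset. The 3 young libraries without spike-in run down from left to right and end lowest, and calls of higher genes reach 48.9% in the longest bin.

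To set apart the genes whose difference was called whatever the treatment of length and whichever young library was left out, 8 fits were compared, with and without the offset, on all 15 libraries and without each young library in turn. In all 8 fits 42 genes were called higher and 48 lower. Without the offset, in the 4 fits that differ only in the young libraries, the counts were 513 and 183. Below, genes called in all 8 fits are named as such. Counts over gene lists are of the members with enough counts to be tested. They stand beside shares over all genes tested of 13.6% higher and 9.33% lower with no offset, and 5.05% and 4.23% with it.

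Eggshell genes were lower in days 5 to 8. All 7 chorion genes tested (of 9 listed) fell, with a median log2 difference of -5.86 against -0.03 over all genes, and -5.59 with the length offset. Cp38 (FBgn0000360, X, 8481837 to 8483311 in the deposited FlyBase annotation) encodes a major protein of the chorion and lies in an X-linked cluster with Cp36. It had 0 to 5.94 CPM in days 5 to 8 with a median of 1.50, and 213, 34.3 and 163 CPM in the young libraries of days 2, 3 and 4. No older library came near the lowest young one, and the means differed 73.6-fold (log2 -6.16 ± 0.40, SE, edgeR adjusted p = 3.44e-09).

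Cp36 (FBgn0000359, X, 8479319 to 8480523) had 0 to 6.21 CPM in days 5 to 8, with 6 of the 12 libraries at 0. It had 160, 29.5 and 107 CPM in the young libraries (log2 -5.86 ± 0.55, adjusted p = 7.53e-07). Cp15, of the chorion cluster on 3L, ranged from 0.302 to 24.2 CPM with a median of 1.805 in days 5 to 8, against 364, 290 and 28.1 CPM in the young libraries (log2 -5.53 ± 0.61, adjusted p = 3.53e-06). The young library of day 4 was the lowest of the young side for Cp15 and that of day 3 for Cp36 and Cp38, so the young libraries did not share 1 order. Cp18 showed the same split, with 0.867 to 8.15 CPM in days 5 to 8, against 94.7, 73.1 and 2.02 CPM. The older libraries overlapped the young one of day 4 there. The X-linked genes Cp7Fb and Cp7Fc rested on 11 and 10 counts over the 12 older libraries, against 808 and 791 counts over the 3 young ones. Of the 7 chorion genes tested on all 15 libraries, Cp19 alone was not called in all 8 fits. It missed with the offset when the young library of day 2 or of day 3 was left out (adjusted p = 0.0900 and 0.0831). The young libraries with spike-in had 12.6 to 270 CPM of Cp38 and 11.1 to 222 CPM of Cp36.

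Of 15 genes of the vitelline membrane and of eggshell assembly, 8 fell and 1 rose (median log2 -1.38), and with the offset 8 fell and 0 rose (median -1.33). Vm26Aa (FBgn0003979, 2L, 5959596 to 5960340), a structural protein of the vitelline membrane, had 0.468 to 62.2 CPM with a median of 3.24 in days 5 to 8. It had 132, 200 and 193 CPM in the young libraries, all above the highest older one (log2 -3.76 ± 0.69, adjusted p = 0.000581). Vm34Ca, another such protein, had 0.506 to 60.5 CPM with a median of 5.75 in days 5 to 8, against 134, 143 and 244 CPM (log2 -3.86 ± 0.61, adjusted p = 0.000149). For either gene no library of days 5 to 8 reached the lowest young one.

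The eggshell gene dec-1 (FBgn0000427, X, 7867161 to 7873222), whose protein is cleaved into several eggshell components, was steadier. It had 35.0 to 70.4 CPM with a median of 53.4 in days 5 to 8, against 121, 178 and 125 CPM in the young libraries (log2 -1.38 ± 0.16, adjusted p = 7.00e-06). Its exons span 5748 bases, so its fall ran against the trend on length and grew to -1.71 ± 0.16 with the offset. The paired genes yellow-g and yellow-g2, needed to harden the eggshell, had 7 and 9 of the 12 older libraries at 0 and 2.86 to 24.6 and 2.62 to 19.9 CPM in the young libraries. CG13114 (2L) fell with them, at 0 to 1.01 CPM in days 5 to 8 against 16.3, 6.19 and 3.54 CPM (log2 -4.61 ± 0.57, adjusted p = 1.06e-05). Vm26Ab, another vitelline membrane protein, had 30.1 to 224 CPM in days 5 to 8 against 274, 207 and 167 CPM. It was called without the offset (log2 -1.21 ± 0.40, adjusted p = 0.0323) and not with it (adjusted p = 0.152), and not without the young library of day 2 or day 3 (adjusted p = 0.196 and 0.0815).

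None of the yolk protein genes was called on all 15 libraries. Yp1, Yp2 and Yp3 encode the yolk polypeptides that follicle cells and fat body make. Yp2 had 4.55 to 106 CPM with a median of 27.2 in days 5 to 8, against 242, 139 and 23.04 CPM (log2 -1.68 ± 0.62, adjusted p = 0.0569), and it was called without the young library of day 4 (adjusted p = 0.0253). Yp3 overlapped fully, at 20.7 to 247 CPM in days 5 to 8 and 113, 94.7 and 117 CPM in the young libraries. The receptor gene yl, by which the oocyte takes up yolk, had 3277 to 4521 CPM in days 5 to 8, against 3142, 3015 and 3573 CPM. Its call (log2 0.30 ± 0.10, adjusted p = 0.0317) was lost with the offset, where the sign turned (log2 -0.07, adjusted p = 0.703). It was also lost without the young library of day 2 or day 3 (adjusted p = 0.143 and 0.128).

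**Figure D2:**
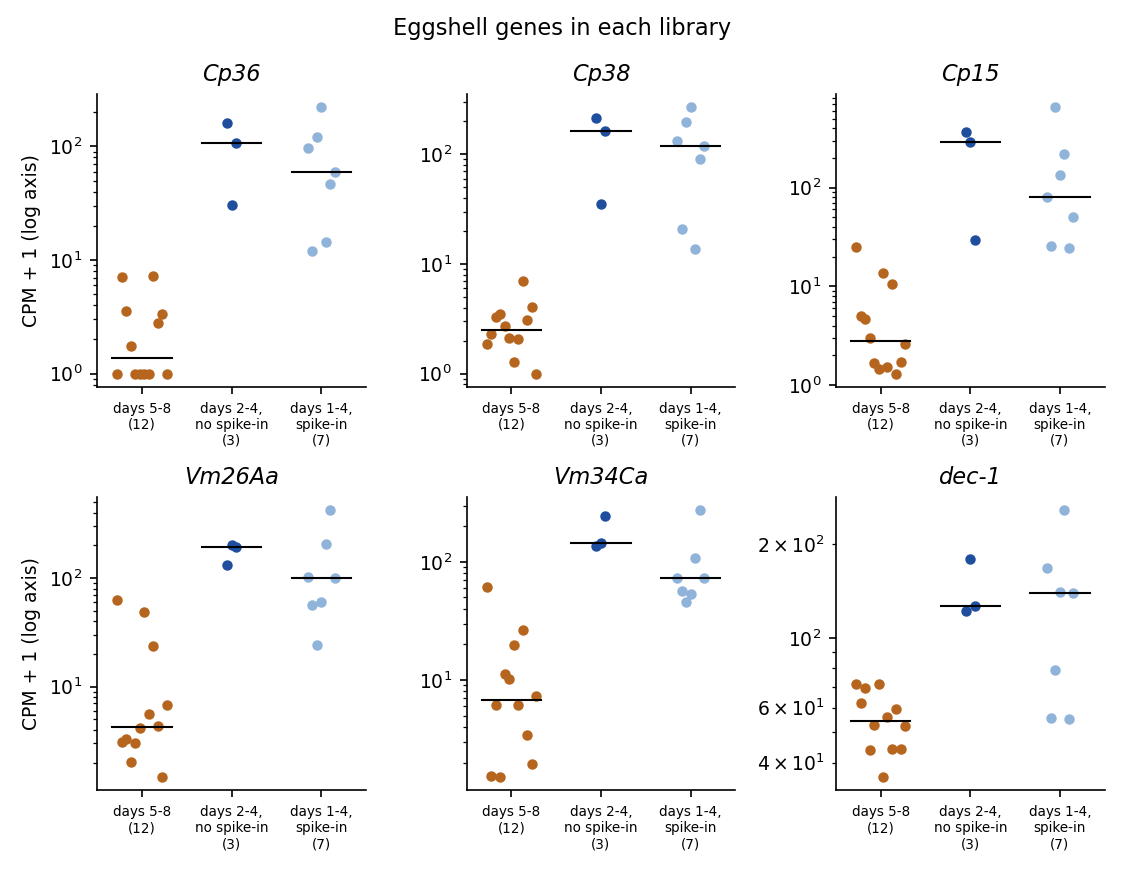
Level of 6 eggshell genes in each library, as CPM + 1 on a log axis. Points are libraries, bars are medians, and the numbers under the groups count libraries. For each gene the 12 libraries of days 5 to 8 lie below the 3 young libraries without spike-in, while the 7 young libraries with spike-in overlap those 3.

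Regulators of follicle cell fate were higher in days 5 to 8 than in the 3 young libraries without spike-in. Of 19 such genes 13 rose and 0 fell (median log2 0.67), and with the length offset 4 rose and 0 fell (median 0.40 against 0.001 over all genes). Without the young libraries of days 2, 3 and 4, 10, 13 and 11 rose with no offset and 2, 4 and 2 with it. Over all genes tested 13.6% were called higher with no offset and 5.05% with it. The median exon length of the list is 5210 bases, and in the bin of the longest protein-coding genes 48.9% were called higher with no offset. The list summed to 3122 to 4146 CPM in days 5 to 8 and 1969 to 2205 CPM in the 3 young libraries. In the 7 young libraries with spike-in it summed to 2883 to 3774 CPM. The follicle cell markers tj, Fas3, cas and eya, whose sums are given above, are all members of this list. Whether the list differed through the number of follicle cells was not tested. eya (FBgn0000320, 2L, 6527447 to 6546976) encodes a nuclear factor that sets epithelial against polar follicle cell fate. It had 187 to 325 CPM with a median of 238 in days 5 to 8, against 109, 134 and 128 CPM in the young libraries (log2 0.99 ± 0.15, adjusted p = 0.000108). The sides did not overlap, and with the offset the difference was 0.86 ± 0.15 (adjusted p = 0.00135). ct (FBgn0004198, X, 7609148 to 7678859), a homeodomain factor that acts in follicle cells with Notch, had 232 to 442 CPM with a median of 316 in days 5 to 8, against 99.8, 145 and 114 CPM (log2 1.45 ± 0.18, adjusted p = 9.76e-06). Its exons total 11777 bases, and the offset lowered the difference to 0.84 ± 0.14 (adjusted p = 0.00112). Both genes were called in all 8 fits.

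The large Maf factor gene tj, a marker of somatic gonad cells, had 360 to 507 CPM in days 5 to 8 against 278, 310 and 242 CPM (log2 0.64 ± 0.12, adjusted p = 0.000570). With the offset its difference was 0.54 ± 0.12 (adjusted p = 0.00728), but with the offset it missed without the young library of day 2 or day 4 (adjusted p = 0.0653 and 0.0621). The zinc finger genes br and peb, which act in follicle cells at the change from mitosis to endocycle and later in patterning, rose by 1.20 ± 0.14 and 1.077 ± 0.23 (adjusted p = 7.31e-06 and 0.00183). With the offset br kept a difference of 0.41 (adjusted p = 0.0478), lost when any young library was left out (adjusted p = 0.111 to 0.248), and peb was not called (log2 0.65, adjusted p = 0.0753).

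Genes of the basement membrane, the sheet of matrix around each egg chamber, were also higher in days 5 to 8: 6 of 10 rose and 0 fell (median log2 0.75), and with the offset 5 rose and 0 fell (median 0.36). trol (FBgn0267911, X, 2470460 to 2545410) encodes perlecan, and had 2304 to 3321 CPM with a median of 2647 in days 5 to 8, against 1139, 1437 and 1090 CPM (log2 1.13 ± 0.12, adjusted p = 1.90e-06). vkg, a collagen IV chain, had 1329 to 2562 CPM with a median of 1961 in days 5 to 8, against 980, 1095 and 954 CPM (log2 0.98 ± 0.14, adjusted p = 6.085e-05). LanB1, a laminin chain chosen after its values were seen, had 525 to 704 CPM in days 5 to 8, against 371, 389 and 350 CPM (log2 0.77 ± 0.10, adjusted p = 1.74e-05). The sides did not overlap for any of these, and all 6 genes were called in each fit with no offset. With the offset the differences were 0.34 ± 0.10 for trol, 0.60 ± 0.14 for vkg and 0.40 ± 0.09 for LanB1 (adjusted p = 0.0412, 0.00974 and 0.00865). None of the 10 was called with the offset when the young library of day 2 or of day 4 was left out, and 3 were when that of day 3 was. The median of the list was then 0.30 to 0.43. Over all genes tested 13.6% were called higher with no offset and 5.05% with it. The median exon length of the list is 6223.5 bases, and in the bin of the longest protein-coding genes 48.9% were called higher with no offset. The 11 listed genes summed to at least 8218 CPM in days 5 to 8 and 5263 to 6377 CPM in the 3 young libraries. In the young libraries with spike-in they summed to at least 6878 CPM, with a median of 9356 CPM.

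Signalling pathways that pattern the follicular epithelium held genes called higher than in the young libraries without spike-in, fewer of them with the offset. Over all genes tested 13.6% were called higher without the offset and 5.05% with it, and in the bin of the longest protein-coding genes 48.9% were without it. The median exon lengths of the EGF receptor, JAK-STAT, Notch and BMP lists were 5339, 4875, 4095 and 3666 bases, against 2231 bases over all genes tested. For EGF receptor signalling, which patterns the epithelium around the oocyte, 6 of 10 genes rose (median log2 0.62), and 2 with the offset (0.40). For JAK-STAT signalling, which specifies polar, stalk and border cells, 4 of 7 rose (0.50), and 2 with the offset (0.40). For Notch, which ends follicle cell mitosis, 5 of 11 rose (0.38), and 2 with the offset (0.07). For BMP, which maintains germline stem cells and later patterns the anterior follicle cells, 4 of 10 rose (0.28), and 2 with the offset (0.11). No gene of these lists fell in either fit. Without the young library of day 2 the counts for the EGF receptor, JAK-STAT, Notch and BMP lists were 3, 3, 4 and 2 with no offset, and 0, 0, 0 and 1 with it. Without that of day 4 they were 6, 2, 3 and 3 with no offset, and 0, 1, 0 and 1 with it. Without that of day 3 they were 6, 3, 4 and 4, and 2, 1, 0 and 2. The EGF receptor list summed to 1063 to 1378 CPM in older libraries and 740 to 899 CPM in young ones without spike-in. In the young libraries with spike-in it summed to 1033 to 1422 CPM. In the same order JAK-STAT gave 823 to 1023, 682 to 714 and 832 to 1015 CPM. Notch gave 1192 to 1442, 882 to 915 and 1138 to 1649 CPM. BMP gave 632 to 786, 565 to 635 and 662 to 802 CPM. In each list the young libraries with spike-in thus overlapped the older ones.

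The BMP list member called in all 8 fits was brk (X, 7307939 to 7311132), a repressor of BMP target genes. It had 16.9 to 33.8 CPM with a median of 27.3 in days 5 to 8, against 13.99, 8.57 and 10.4 CPM (log2 1.27 ± 0.21, adjusted p = 0.000267). Every older library lay above every young one, the difference was 1.22 ± 0.21 with the offset, and brk was called in all 8 fits. Egfr itself had 134 to 203 CPM in days 5 to 8, against 78.0, 115 and 87.1 CPM (log2 0.84 ± 0.14, adjusted p = 0.000267). With the offset Egfr was called (log2 0.44, adjusted p = 0.0415), but not when the young library of day 2 or day 4 was left out as well (adjusted p = 0.341 and 0.165). The Notch receptor gene N had 408 to 595 CPM in days 5 to 8 against 289, 304 and 279 CPM. It was called with no offset (log2 0.75 ± 0.11, adjusted p = 7.93e-05) and not with it (log2 0.20, adjusted p = 0.201).

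Ten-a, a teneurin of the cell surface, and ex were chosen after their values were seen. Ten-a had 63.9 to 109 CPM with a median of 78.4 in days 5 to 8, against 19.3, 29.0 and 32.4 CPM (log2 1.62 ± 0.19, adjusted p = 7.31e-06). With the offset its difference was 0.89 ± 0.18 (adjusted p = 0.00442), which missed without the young library of day 2 (adjusted p = 0.0799). ex, an upstream component of the Hippo pathway that restrains growth, had 186 to 322 CPM with a median of 253 in days 5 to 8, against 105, 133 and 98.5 CPM (log2 1.21 ± 0.14, adjusted p = 7.00e-06). The sides did not overlap for either gene, and ex was called in all 8 fits.

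**Figure D3:**
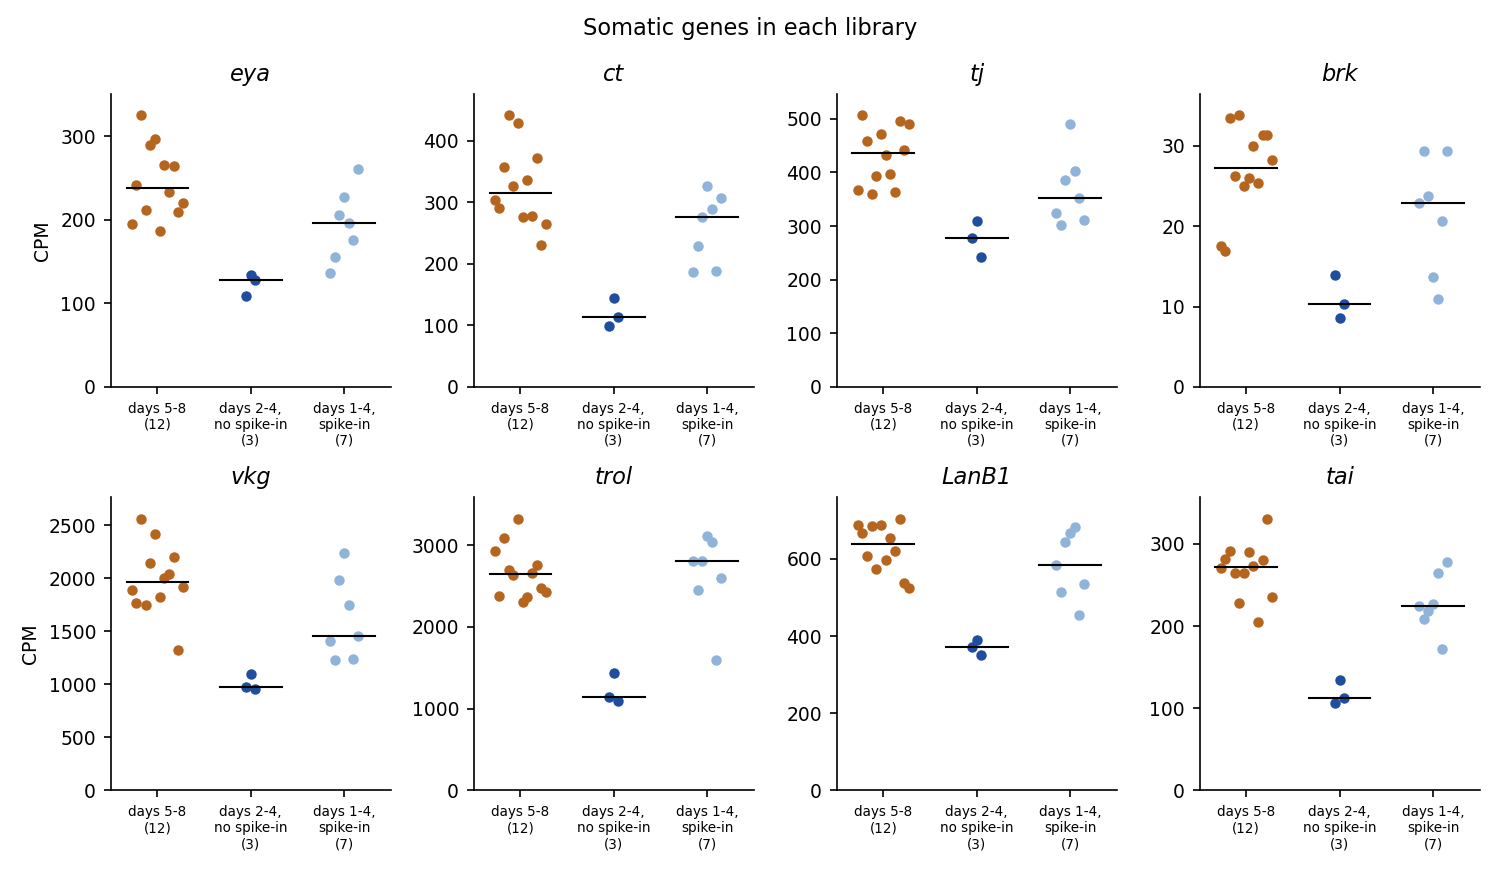
CPM of 8 somatic genes in each library, on linear axes from 0. Points are libraries and bars are medians. In every panel the 12 libraries of days 5 to 8 lie above the 3 young libraries without spike-in, and the 7 young libraries with spike-in overlap days 5 to 8.

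Of 12 ecdysone response genes 5 rose and 0 fell (median log2 0.34), while with the offset 3 rose and 1 fell (median 0.01). With the offset no member was called without the young library of day 2, 1 rose and 2 fell without that of day 3 (median -0.13), and 1 rose and 0 fell without that of day 4. With no offset, leaving out that of day 3 gave 4 higher and 1 lower. The median exon length of the list is 8956.5 bases. In the bin of the longest protein-coding genes 48.9% were called higher with no offset, against 13.6% over all genes tested. The 14 listed genes summed to 2027 to 2319 CPM in days 5 to 8 and 1249 to 1381 CPM in the 3 young libraries. In the young libraries with spike-in they summed to 1778 to 2366 CPM. The coactivator gene tai, which binds the ecdysone receptor, had 205 to 331 CPM with a median of 272 in days 5 to 8, against 106, 134 and 113 CPM (log2 1.19 ± 0.12, adjusted p = 1.88e-06). With the offset its difference was 0.58 ± 0.12 (adjusted p = 0.00423), and it then missed only without the young library of day 2 (adjusted p = 0.0572). Eip75B, a nuclear receptor induced by ecdysone, had 350 to 492 CPM in days 5 to 8, against 181, 254 and 243 CPM (log2 0.96 ± 0.11, adjusted p = 5.67e-06), and was not called with the offset (log2 0.32, adjusted p = 0.0823).

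The clock gene per (FBgn0003068, X, 2685580 to 2692780), whose protein represses its own activators, was higher in days 5 to 8. It had 77.8 to 132 CPM with a median of 90.7 in days 5 to 8, and 19.7, 33.8 and 34.7 CPM in the young libraries. No young library came near the lowest older one, and the means differed 3.19-fold (log2 1.70 ± 0.17, adjusted p = 1.37e-06). With the offset the difference was 1.47 ± 0.16 (adjusted p = 9.79e-06), and per was called in all 8 fits. Its means were 91.6, 105, 91.1 and 87.4 CPM on days 5, 6, 7 and 8. The young libraries with spike-in had 45.1 to 93.1 CPM with a median of 51.7, and the highest of them lay within the range of days 5 to 8. Of 8 clock genes 3 rose and 0 fell (median log2 0.47), and 1 rose with the offset. With no offset 2 rose without the young library of day 2 or of day 4. Flies were raised in constant light, and the labels do not give the hour of dissection. tim, the partner of per and chosen after its values were seen, was not called, at 116 to 470 CPM in days 5 to 8 and 252, 275 and 103 CPM in the young libraries (log2 0.35 ± 0.37, adjusted p = 0.532).

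Maternal mRNAs of the germ plasm and oocyte axes moved both ways. Of 19 genes 6 rose and 5 fell (median log2 0.09), and with the offset 1 rose and 4 fell (0.01). Without the young library of day 2, 5 rose and 2 fell with no offset. With the offset 0 rose and 2, 5 and 3 fell without the young libraries of days 2, 3 and 4. pgc (FBgn0016053, 2R, 22330200 to 22332813), which silences transcription in the pole cells of the embryo, had 14.2 to 38.6 CPM with a median of 25.8 in days 5 to 8, against 71.0, 66.2 and 58.7 CPM (log2 -1.28 ± 0.18, adjusted p = 5.50e-05). All older libraries lay below all 3 young ones. me31B, an RNA helicase of the particles that store and repress maternal mRNA, had 596 to 802 CPM with a median of 712 in days 5 to 8, against 1426, 1215 and 1019 CPM (log2 -0.79 ± 0.10, adjusted p = 2.36e-05). Both were called in all 8 fits, with differences of -1.03 ± 0.18 for pgc and -0.63 ± 0.10 for me31B under the offset. The young libraries with spike-in had 24.5 to 47.1 CPM of pgc and 606 to 935 CPM of me31B, which lie nearer to the values of days 5 to 8.

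The gap gene hb, whose maternal transcript is laid down in the oocyte and which was chosen after its values were seen, had 26.5 to 39.3 CPM with a median of 33.5 in days 5 to 8. It had 87.6, 55.5 and 46.1 CPM in the young libraries (log2 -0.94 ± 0.15, adjusted p = 0.000167; with the offset -1.08 ± 0.15). The young libraries with spike-in had 57.3 to 99.6 CPM, above all libraries of days 5 to 8, and hb was called in all 8 fits. nos, the translational repressor that defines the posterior, had 38.6 to 80.9 CPM in days 5 to 8, against 139, 95.2 and 91.6 CPM (log2 -0.68 ± 0.16, adjusted p = 0.00375), a call lost without the young library of day 2 (adjusted p = 0.106). osk and vas were not called: osk had 1871 to 2729 CPM in days 5 to 8 and 1945, 1873 and 2680 CPM in the young libraries, and vas 196 to 240 CPM and 233.7, 232 and 200 CPM.

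Of 19 mitosis genes 0 rose and 6 fell (median log2 -0.26), and with the offset 0 rose and 4 fell (-0.27), where 9.33% and 4.23% of all genes tested were called lower in these fits. Among them twe, the Cdc25 phosphatase of meiosis, had 6.30 to 16.9 CPM in days 5 to 8 against 30.9, 16.7 and 16.5 CPM (log2 -1.07 ± 0.24, adjusted p = 0.00275), and it was not called without the young library of day 2 (adjusted p = 0.124). The counts of mitosis genes lower were 1, 7 and 3 without the young libraries of days 2, 3 and 4, and with the offset as well 0, 3 and 2. Of 14 genes of meiotic recombination and the meiotic spindle 0 rose and 2 fell (median log2 -0.31), and with the offset 0 and 1 (-0.20), which is near the share over all genes. sub, a kinesin of the meiotic spindle, had 10.1 to 20.5 CPM with a median of 16.2 in days 5 to 8, against 35.4, 27.6 and 26.3 CPM (log2 -0.94 ± 0.18, adjusted p = 0.000702). Its sides did not overlap, and it missed in 1 of the 8 fits, with the offset and without the young library of day 2 (adjusted p = 0.0799). Without the young libraries of days 2, 3 and 4 the list had 1, 1 and 1 genes lower with no offset and 0, 1 and 1 with it. Of 27 DNA replication genes 1 rose and 6 fell, and with the offset 0 and 2. None was called without the young library of day 2 in either kind of fit, and without that of day 3 or day 4, 3 and 4 fell with no offset.

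Among 12 genes of lipid uptake and storage, both proteins that coat lipid droplets were lower. Jabba (2R, 18757074 to 18761082), which anchors histones to droplets in the embryo, had 146 to 229 CPM with a median of 184 in days 5 to 8, against 425, 312 and 291 CPM (log2 -0.87 ± 0.13, adjusted p = 0.000103). Lsd-2, a perilipin that guards stored fat, had 187 to 268 CPM with a median of 223 in days 5 to 8, against 379, 327 and 287 CPM (log2 -0.55 ± 0.11, adjusted p = 0.000948). No older library reached any young one for either gene. With the offset the differences were -0.80 ± 0.13 for Jabba and -0.78 ± 0.11 for Lsd-2, and both genes were called in all 8 fits. Their levels in the young libraries with spike-in were 240 to 401 CPM for Jabba and 253 to 385 CPM for Lsd-2. The fatty acid synthase gene FASN1 had 558 to 1360 CPM in days 5 to 8 against 388, 524 and 567 CPM. It was called with no offset (log2 0.85 ± 0.20, adjusted p = 0.00398), but not with it (log2 0.37, adjusted p = 0.278) nor without the young library of day 2 (adjusted p = 0.0535). In all, 3 genes of the list rose and 2 fell (median log2 0.08), and 0 and 2 with the offset. With no offset 0 rose without the young library of day 2.

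**Figure D4:**
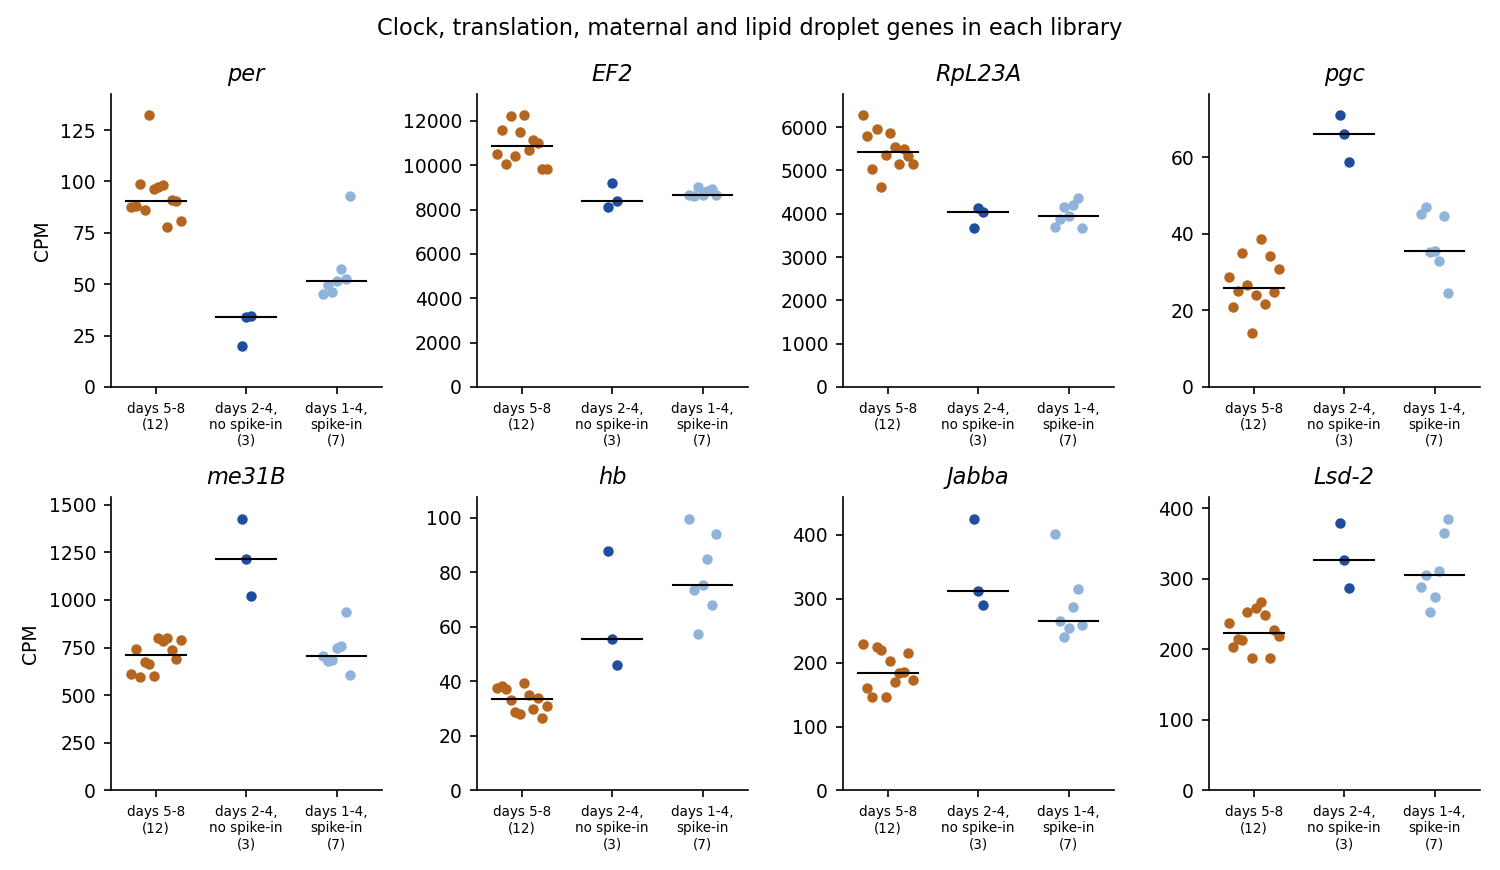
CPM of 8 genes of the clock, translation, maternal mRNAs and lipid droplets in each library, on linear axes from 0. Points are libraries and bars are medians. per, EF2 and RpL23A lie higher in days 5 to 8 than in the 3 young libraries without spike-in, and pgc, me31B, hb, Jabba and Lsd-2 lower. The young libraries with spike-in lie near days 5 to 8 for me31B and near the other young libraries for EF2, RpL23A, hb and Lsd-2.

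Ribosomal protein genes, which encode the parts of the ribosome, gave different counts with and without the offset. Of 84 cytosolic ribosomal protein genes 9 rose and 9 fell without it (median log2 -0.01), and 31 rose and 1 fell with it (median 0.24). The median exon length of the list is 921.5 bases, against 2231 bases over all genes tested. The 92 listed genes summed to 1.641e+05 to 2.345e+05 CPM in days 5 to 8 and 1.763e+05 to 2.333e+05 CPM in the 3 young libraries. The counts with no offset are near the shares over all genes tested, 13.6% higher and 9.33% lower. With the offset those shares were 5.05% and 4.23%. Without the young library of day 2, 5 rose and 9 fell with no offset and 11 rose and 0 fell with it. Without that of day 3 the counts were 16 and 0, and 43 and 0. Without that of day 4 they were 6 and 13, and 14 and 1. RpL23A, RpL28, RpS13 and RpS26 were among those called higher in all 8 fits, of which RpS13 was chosen after its values were seen. RpL23A had 4624 to 6274 CPM with a median of 5419 in days 5 to 8, against 3662, 4123 and 4042 CPM, with no overlap (log2 0.47 ± 0.09, adjusted p = 0.000684; with the offset 0.73 ± 0.09). RpS26 had 2698 to 4043 CPM in days 5 to 8, against 1841, 2520 and 1877 CPM (log2 0.64 ± 0.11, adjusted p = 0.000404; with the offset 0.80 ± 0.11). The labels do not say how reads that match more than 1 gene were treated.

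The translation factor genes EF2 and pAbp, which encode the elongation factor that moves the ribosome and the polyA-binding protein, rose by 0.35 ± 0.08 and 0.54 ± 0.08 (adjusted p = 0.00504 and 9.49e-05). pAbp had 7100 to 8804 CPM in days 5 to 8, against 4939, 5857 and 5100 CPM. With the offset both were called (adjusted p = 0.0182 for EF2 and 0.00598 for pAbp), but neither without the young library of day 2 as well (adjusted p = 0.162 and 0.0767), and EF2 also not without that of day 4 (0.0813).

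Of 65 nuclear genes of oxidative phosphorylation 7 rose and 7 fell (median log2 -0.05), and with the offset 23 rose and 0 fell (0.19). The median exon length of this list is 888 bases. The counts with no offset are near the shares over all genes tested, 13.6% higher and 9.33% lower. With the offset those shares were 5.05% and 4.23%. Without the young libraries of days 2, 3 and 4 the counts of higher genes were 2, 5 and 2 with no offset and 9, 18 and 11 with it. Those of lower genes were 3, 2 and 5 with no offset and 0, 0 and 1 with it. blw, the alpha subunit of ATP synthase, was the member called in all 8 fits and was chosen after its values were seen, at 2156 to 2600 CPM in days 5 to 8 against 1908, 1960 and 1897 CPM (log2 0.34 ± 0.08, adjusted p = 0.00336). Genes encoded in the mitochondrion gave 0 of 11 higher and 3 lower (median log2 -0.56), and 0 and 2 with the offset (-0.29). Without the young libraries of days 2, 3 and 4, 2, 1 and 5 fell with no offset and 0, 0 and 2 with it. The 13 listed genes summed to 2507 to 7423 CPM in days 5 to 8 and 4264 to 8505 CPM in the 3 young libraries. In the young libraries with spike-in they summed to 1722 to 3188 CPM. mt:CoIII, a subunit of cytochrome c oxidase, had 994 to 2435 CPM in days 5 to 8, against 3255, 3572 and 1937 CPM (log2 -1.01 ± 0.20, adjusted p = 0.00124). The young library of day 4 lay within the range of the older ones, and with the offset the call was lost without the young library of day 2 or day 3 (adjusted p = 0.213 and 0.182). Of 72 mitochondrial ribosomal protein genes 0 rose and 9 fell (median -0.20), and with the offset 1 rose and 2 fell (0.06). The share lower is near the 9.33% over all genes tested and under the 18% in the bin of the shortest protein-coding genes, and the median exon length of the list is 783 bases. Only 2, 3 and 4 of them fell without the young libraries of days 2, 3 and 4.

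Glutathione S-transferases, which detoxify reactive compounds, included 0 of 22 higher and 5 lower (median log2 -0.23), and 0 and 2 with the offset (-0.02). Over all genes tested 9.33% were called lower with no offset and 4.23% with it. The 35 listed genes summed to 793 to 1001 CPM in days 5 to 8 and 1137 to 1167 CPM in the 3 young libraries. In the young libraries with spike-in they summed to 796 to 1063 CPM, with a median of 815 CPM. The median exon length of the list is 928 bases. In the bin of the shortest protein-coding genes 18% were called lower with no offset, with a median log2 difference of -0.27. Without the young libraries of days 2, 3 and 4, 3, 3 and 4 fell with no offset and 0, 1 and 1 with it. GstD1 had 210 to 308 CPM with a median of 264 in days 5 to 8, against 448, 386 and 391 CPM, with no overlap (log2 -0.63 ± 0.10, adjusted p = 0.000161). With the offset its difference was -0.37 ± 0.10 (adjusted p = 0.0266), lost without the young library of day 2 or day 4 (adjusted p = 0.237 and 0.0764). Of 5 replacement histone genes 1 rose and 3 fell, and with the offset 1 rose and 1 fell. With no offset 0 rose without the young library of day 2 or day 4, and with it 0 fell without that of day 3. The 5 genes summed to 1404 to 1793 CPM in days 5 to 8 and 1924 to 2217 CPM in the 3 young libraries. In the young libraries with spike-in they summed to 1344 to 1539 CPM. The variant histone gene His2Av had 343 to 414 CPM in days 5 to 8, against 501, 548 and 462 CPM (log2 -0.43 ± 0.07, adjusted p = 0.000391), and was not called with the offset (log2 -0.18, adjusted p = 0.144).

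**Figure D5:**
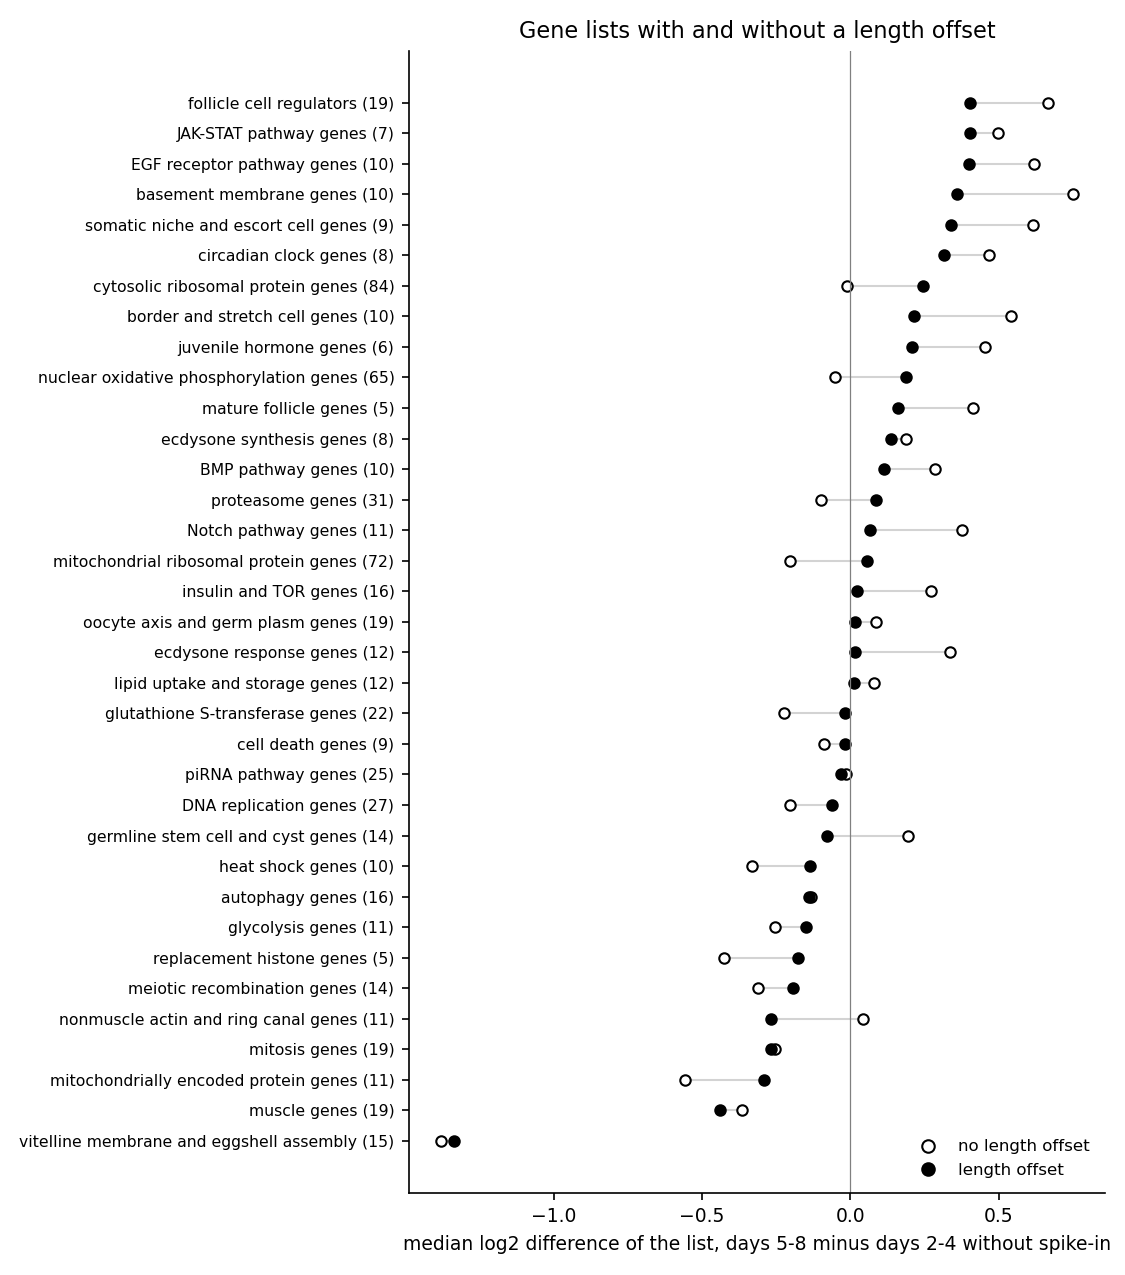
Median log2 difference, days 5 to 8 minus the 3 young libraries without spike-in, of each gene list with at least 5 tested genes, numbers of genes in brackets. Open circles are fits without and filled circles fits with a length offset. The chorion list, at -5.86 and -5.59, lies off the scale and is left out. The follicle cell, basement membrane and signalling lists move towards 0 with the offset and stay above it, while the ribosomal protein and oxidative phosphorylation lists move from near 0 to above it.

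Of the muscle genes, Mhc, Act57B, Tm2 and Prm are read here as markers of the sheath around each ovariole. These markers summed to 99.8 to 311 CPM in days 5 to 8 and 177 to 238 CPM in the young libraries. Of 19 muscle genes tested 3 rose and 0 fell (median log2 -0.37), while with the offset 0 rose and 4 fell (median -0.44). Which cells the RNA of the wider list came from was not tested. The 3 that rose were Msp300, Unc-89 and Zasp52, with exons of 69810, 13261 and 10771 bases. Msp300, a spectrin-repeat protein that anchors nuclei, had 482 to 967 CPM in days 5 to 8 against 437, 509 and 492 CPM. It was called higher with no offset (log2 0.55 ± 0.15, adjusted p = 0.0112) and lower with it (log2 -0.67 ± 0.09, adjusted p = 6.94e-05). It was also not called without the young library of day 2 with no offset (adjusted p = 0.0870). Without the young libraries of days 2, 3 and 4, 0, 3 and 1 muscle genes rose with no offset, and 3 fell in each of these fits with the offset. The myosin heavy chain gene Mhc was not called, at 47.5 to 150 CPM in days 5 to 8 and 76.1, 75.7 and 67.8 CPM in the young libraries. Heat shock genes, which encode chaperones, had 0 of 10 higher and 1 lower, and 0 and 0 with the offset. None of the 10 gut genes or the 22 antimicrobial and immune genes had enough counts to be tested.

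Few genes were called among the 4 older days. A test of any difference among the 4 days called 3 genes (0.0404% of 7426), with 471 at an unadjusted p under 0.05 and 40 calls by the likelihood ratio test of DESeq2. They were phr, a photolyase that repairs ultraviolet damage to DNA, the muscle actin gene Act57B and the cochaperone gene DnaJ-1. phr averaged 38.9 CPM on day 5 and 14.8, 13.2 and 14.2 CPM on days 6, 7 and 8 (adjusted p = 0.0133). It was the 1 gene of these that was also called between the sides, at 10.1 to 44.0 CPM in days 5 to 8 against 43.5, 34.5 and 44.6 CPM (log2 -1.01 ± 0.34, adjusted p = 0.0346). Only day 5 replicates 1 and 2, at 40.6 and 44.0 CPM, lay above the lowest young library, and the call between the sides was lost with the offset (adjusted p = 0.121) and without any 1 of the young libraries (adjusted p = 0.143, 0.0631 and 0.113). DnaJ-1 averaged 94.7, 367, 265 and 130 CPM on days 5 to 8 (adjusted p = 0.0320), and Act57B 95.3, 39.5, 33.9 and 73.0 CPM (adjusted p = 0.0320). The number of genes called was 0 to 5 when 1 of the 12 libraries was left out, and 0 without day 5 replicate 1 or replicate 2 (460 and 456 at an unadjusted p under 0.05).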

How the data were processed

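RNA from 22 anterior ovariole libraries was sequenced as 76 nt single-end reads. The values are whole-number counts of reads per gene, deposited by the authors with the FlyBase release 6.07 annotation. The submitters' processing notes name HTSeq 0.6.1p1, HISAT2 2.0.1, CASAVA 1.8.2 and SAMtools 0.1.2. The strand setting of the counting was not found in the labels. The tables hold 19146 features, of which 1572 natural insertions and 96 spike-in transcripts stayed out of library sizes and tests.

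From the counts, R 4.3.3 with edgeR 4.0.16 (filterByExpr, TMM, quasi-likelihood test, Benjamini-Hochberg threshold 0.05) compared the 12 libraries of days 5 to 8 with the 3 young ones in 1 fit of 15 libraries, with 13 residual degrees of freedom. Log2 differences carry the standard error of that fit. DESeq2 1.42.0 was an alternative. A count of 3 equals 0.647 to 1.01 CPM in days 5 to 8 and 0.307 to 0.822 CPM in the young libraries, and 6008 genes with counts were too low to test. The length offset is each library's lowess trend (span 0.5) on log2 annotated exon length. The fits were also run on simulated counts, with no length trend or with a straight-line trend that was the same in every older library. Those runs do not show how well the offset works on the trends of these data, which varied by library.

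The members and the 45 gene lists were chosen with earlier results of these data known. The genes named are the 12 largest rises and 12 largest falls without overlap at a mean of at least 5 CPM, the 6 most abundant called in each direction, up to 4 called members per list, the 5 smallest p-values among days 5 to 8, and marker genes. Genes outside this rule are marked in the text.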

Additional observations from a re-analysis of the deposited data

How the results depend on the processing

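The count of called genes depended on the length offset and on the young libraries. Leaving out 1 of the 15 libraries gave 582 to 1066 genes higher and 246 to 775 lower. With the offset the counts were 375 and 314, with the offset and the replicate block 409 and 297, and with the offset and without the young libraries of days 2, 3 and 4 they were 71 and 80, 224 and 174, and 176 and 180. Against the young libraries, day 5 alone gave 643 and 314 and day 8 alone 570 and 216. With the chorion level as a covariate 0 genes were called in either direction (472 at an unadjusted p under 0.05, lowest adjusted p 0.190). That covariate had a correlation of -0.92 with the side over the 15 libraries.

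Signs turned with the chorion covariate for Vm26Aa (log2 1.20), Vm32E (1.53), yellow-g2 (1.18), yl (-0.12), Yp1 (1.76), twe (0.50), phr (0.94) and Act57B (0.93). None of these genes was called in that fit (edgeR adjusted p = 0.905 to 0.974). Signs also turned with the length offset alone, and with it and the block, for ndl (-0.063 and -0.035), yl (-0.067 and -0.059) and Msp300 (-0.67 and -0.69). The cause was not tested.

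The test among days 5 to 8 called 40 genes by the likelihood ratio test of DESeq2, 7 with the replicate block and 0 to 5 when a library was left out. Same-numbered libraries had a median correlation of deviations of 0.0784, and other pairs -0.0506, so the numbers were not taken as pairs. In the comparison of the sides the block gave 1100 higher and 796 lower. DESeq2 gave 1244 and 659, and other scalings 1087 and 610 (DESeq2 size factors) and 842 and 954 (upper quartile). The fits took 1 spread per gene for both sides, set mostly by the 12 older libraries, so the young side had no spread of its own. The 3 young libraries were of unequal depth and were 1 each of days 2, 3 and 4. No young day was thus replicated in this comparison, and the differences among them hold age as well as sampling.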

Other observations

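Genes without a protein product also differed between the sides. Of 46 small nucleolar RNAs tested 22 were higher in days 5 to 8 and 0 lower with no offset (47.8% higher, median log2 1.47). Over all genes tested 13.6% were called higher and 9.33% lower in that fit. Only some of the 22 were called in all 8 fits. The libraries were chosen by their spike-in counts, and the summed share of small RNAs, given above, overlapped between the sides. How the calls of single small nucleolar RNAs go with that summed share was not tested. Of 16 ribosomal RNA genes 3 were higher and 11 lower with no offset (median log2 -1.66), and only some of these were called in all 8 fits. CR40712, an rRNA gene copy on an unplaced scaffold, had 7.03 to 26.7 CPM with a median of 13.1 in days 5 to 8, against 236, 164 and 219 CPM in the young libraries of days 2, 3 and 4 (log2 -3.87 ± 0.22, edgeR adjusted p = 8.01e-10). Copies of rRNA genes share reads, so the copy that these came from is uncertain. 7SLRNA:CR42652, an RNA of the signal recognition particle, had 0 to 1.45 CPM in days 5 to 8, against 7.98, 8.57 and 9.87 CPM (log2 -4.11 ± 0.50, adjusted p = 9.95e-06). Both genes were called in all 8 fits.

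The mitochondrial ribosomal RNAs differed in opposite directions. mt:srRNA, of the small subunit, had 18.3 to 229 CPM with a median of 44.7 in days 5 to 8, against 12.02, 8.57 and 4.56 CPM (log2 2.94 ± 0.72, adjusted p = 0.00547). mt:lrRNA, of the large subunit, had 3217 to 7936 CPM with a median of 5173 in days 5 to 8, against 17150, 16520 and 6569 CPM (log2 -1.41 ± 0.24, adjusted p = 0.000248), where the young library of day 4 lay within the older range. With the offset and without the young library of day 2 neither was called (adjusted p = 0.0695 for mt:srRNA and 0.0827 for mt:lrRNA), and mt:srRNA was also missed with the offset and without that of day 4 (adjusted p = 0.0595). The young libraries with spike-in had 199 to 736 CPM of mt:srRNA and 3173 to 6100 CPM of mt:lrRNA. Counts on natural transposon insertions made up 1.48 to 2.18% in days 5 to 8 and 2.64 to 4.11% in the young libraries without spike-in.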
